A study of Homo sapiens with 9 samples.

Results

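The genes described here were those whose level differed from an empty-vector line in the same direction in both of a pair of transporter lines of PANC-1. The 3 libraries of the line overexpressing SLC22A10 and the 3 of the line overexpressing SLC22A15 were taken as one side and the 3 vector libraries as the other. A gene was counted where all 6 overexpressing libraries lay above, or all 6 below, all 3 vector libraries. Of 14554 genes that reached 1 CPM (CPM is the read count of a gene scaled to a library of 1 M reads) in at least 3 of the 9 libraries, 3265 did so, or 22.4%. They were 1738 genes above vector (11.9%) and 1527 below (10.5%). Both lines are set against the same 3 vector libraries. A peculiarity of the vector line would give the same pattern, so a change shared by the transporter lines and a change of the vector line alone cannot be told apart.

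PANC-1 is an established human cell line from an epithelioid carcinoma of the pancreatic duct. The cells had been transduced with lentiviral plasmids, pLV-EV (empty) for the vector group, pLV-SLC22A10 for SLC22A10_OE and pLV-SLC22A15 for SLC22A15_OE, and all 3 groups were selected and kept in puromycin. Total RNA was depleted of ribosomal RNA and sequenced with a strand-specific kit, 3 libraries per group. The labels call the cells of each group clones and do not say how many clones a group holds. No label names the promoter that drives the transporters. The suffixes A1, A2 and B1 of the sample titles are not explained, and nothing says that the libraries came from separate cultures, so the p-values cover nothing beyond the spread of these 9 libraries, and that spread may be technical.

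The SLC22 family holds transporters of the plasma membrane that carry organic anions, cations and zwitterions such as carnitine, urate and drugs. Lines selected after lentiviral transduction can differ from each other by the transgene, by where the virus inserted and by which cells of a mixed culture founded them. Pancreatic carcinoma cells are known to use growth factor signalling through EGFR and ERK and the YAP and TEAD regulators of growth and adhesion, and some carry a standing level of interferon-stimulated transcripts.

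The libraries held 28.4 to 42.9 M reads, so a gene at 1 CPM rested on 27.8 to 43.4 reads. In 1 library of each group (vector 1, SLC22A10_OE 3 and SLC22A15_OE 1) the mitochondrial ribosomal RNAs took 0.00958 to 0.0151% of the reads, against 0.0454 to 0.0843% in the other libraries. Of 9 duct markers 6 were in the table, with a summed level of 439.7 to 479 CPM in vector, 557 to 618 CPM in SLC22A10_OE and 295 to 329.9 CPM in SLC22A15_OE. The acinar and islet markers listed were not analysed here. Of the markers of other cell types that could be read, RGS5 of stellate cells and pericytes rose (263, 309 and 291 CPM in vector, 651, 653 and 601 in SLC22A10_OE, 419.7, 457 and 456 in SLC22A15_OE), as did CDH5 of endothelium (at most 1.45, 7.65 and 2.86 CPM), CD68 and CD14. ACTA2, the other stellate marker read, was not called jointly (-0.15, limma Benjamini-Hochberg adjusted p = 0.233) and was lower in SLC22A15_OE (1.23, 1.21 and 1.64 CPM in vector, 1.40, 1.37 and 1.62 in SLC22A10_OE, 0.794, 0.780 and 0.944 in SLC22A15_OE). Of the markers of HEK293T, a line commonly used to make lentivirus, PAX2 was called higher jointly (0.27), with 4.65, 3.77 and 4.30 CPM in vector, 7.70, 6.87 and 8.60 in SLC22A10_OE and 3.65, 3.46 and 3.64 in SLC22A15_OE. POU3F2 was called lower (-0.47), with 2.09, 2.45 and 1.99 CPM in vector, 2.12, 1.23 and 1.58 in SLC22A10_OE and 1.05, 1.09 and 0.875 in SLC22A15_OE. PDGFRB, PECAM1 and PTPRC, defining markers of pericytes, endothelium and leukocytes, were among those not analysed here, and the part of other cells in the results was not tested.

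The transduced genes were read first. SLC22A10 held 0, 0.0281 and 0 CPM in vector libraries 1 to 3, 80.5, 91.4 and 84.4 CPM in SLC22A10_OE and 0 CPM in every SLC22A15_OE library. SLC22A15 held 6.52, 6.36 and 5.46 CPM in vector, 3.44, 4.12 and 3.96 CPM in SLC22A10_OE and 78.3, 73.3 and 76.1 CPM in SLC22A15_OE. Each was high in its own line alone, so neither had both lines beyond vector, although the joint contrast called both (limma, Benjamini-Hochberg adjusted p = 8.65e-12 and 9.29e-09). A joint call can thus rest on 1 line. edgeR on whole reads recovered from the CPM did not call SLC22A10 jointly (Benjamini-Hochberg adjusted p = 0.991), where SLC22A15_OE held no read.

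The joint contrast was the mean of both line means minus the vector mean on the log2(CPM + 1) scale, here called the joint difference, and was tested with limma on all 9 libraries. It called 7736 genes (53.2%) past the threshold of 0.05 after Benjamini-Hochberg adjustment, 4070 higher (28.0%) and 3666 lower (25.2%). With each library centred on its median, which moved the joint differences by a median of -0.07 and those of SLC22A10_OE by -0.12, the split was 3115 higher and 4983 lower. In another fit the 6 overexpressing libraries were 1 group, so that the distance between the lines counted as spread. It called 1314 genes (9.03% of those tested), 738 higher and 576 lower. Of these 1312 were among the 3265 separated genes. The counts given below for gene lists in that fit are to be read beside this share. Of 222 genes chosen by rule for naming, 130 lost their joint call in the fit as 1 group. The lines tested apart gave 9775 calls in SLC22A10_OE (67.2%) and 2966 in SLC22A15_OE (20.4%), and 2039 of the 3265 genes were called in both. The separation uses the same values as these contrasts, so the counts describe the genes and do not test them. Without vector 1 the separation held for 5231 genes and without any other single library for 3337 to 3858, and the cause of this gap was not tested. Without the 3 libraries low in mitochondrial ribosomal RNA it held for 6093 genes. The rule asks less of fewer libraries, so these counts cannot fall below 3265. A rise alone therefore says nothing about the libraries left out. Those 3 libraries, 1 per group, deviated from their group means together (correlations across genes of 0.48 to 0.57). With a term for them in the limma fit, an alternative chosen after seeing the data, 9661 genes were called jointly, 5001 higher and 4660 lower, with 11170 calls in SLC22A10_OE and 5608 in SLC22A15_OE.

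The vector line was not the line that stood apart most often. SLC22A10_OE lay beyond all 6 other libraries in 8107 genes (55.7%), vector in 3265 (22.4%) and SLC22A15_OE in 1721 (11.8%). Many shared differences were small. In 44.8% of the 3265 genes the smaller of both line differences was under 0.25 on the log2 scale, while in 110 genes (53 above, 57 below) both lines differed from vector by at least 1 and in 12 genes (8 above, 4 below) by at least 2. The genes above vector summed to 84588 to 85688 CPM in the vector libraries and to 107291 to 132915 CPM in the overexpressing ones. Those below summed to 154800 to 160151 CPM in vector and to 109672 to 132894 CPM in the overexpressing ones.

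The difference between the lines, SLC22A15_OE against SLC22A10_OE, does not enter the rule. It was called in 2071 of the 3265 genes (63.4%), near the 62.9% of all genes tested. SLC22A10_OE lay farther from vector than SLC22A15_OE in 2668 of the 3265. Genes above vector had a median difference of 0.62 in SLC22A10_OE and 0.33 in SLC22A15_OE, and genes below of -0.51 and -0.26. Just inside the separation lay OS9, a lectin of the endoplasmic reticulum, at 81.3, 78.2 and 80.3 CPM in vector, 129.6, 127 and 134 in SLC22A10_OE and 81.3, 82.8 and 82.6 in SLC22A15_OE, and CHORDC1, a chaperone partner, at 86.8, 101 and 105 CPM in vector, 41.6, 44.8 and 34.5 in SLC22A10_OE and 74.6, 86.8 and 86.2 in SLC22A15_OE. Just outside lay TNFAIP1 at 49.9, 47.5 and 49.5 CPM in vector, 50.7, 56.95 and 57.2 in SLC22A10_OE and 54.4, 49.8 and 49.9 in SLC22A15_OE and UMPS, an enzyme of uridine synthesis, at 115, 119 and 121 CPM in vector, 75.1, 76.1 and 71.99 in SLC22A10_OE and 110.3, 109 and 115 in SLC22A15_OE.

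**Figure D1:**
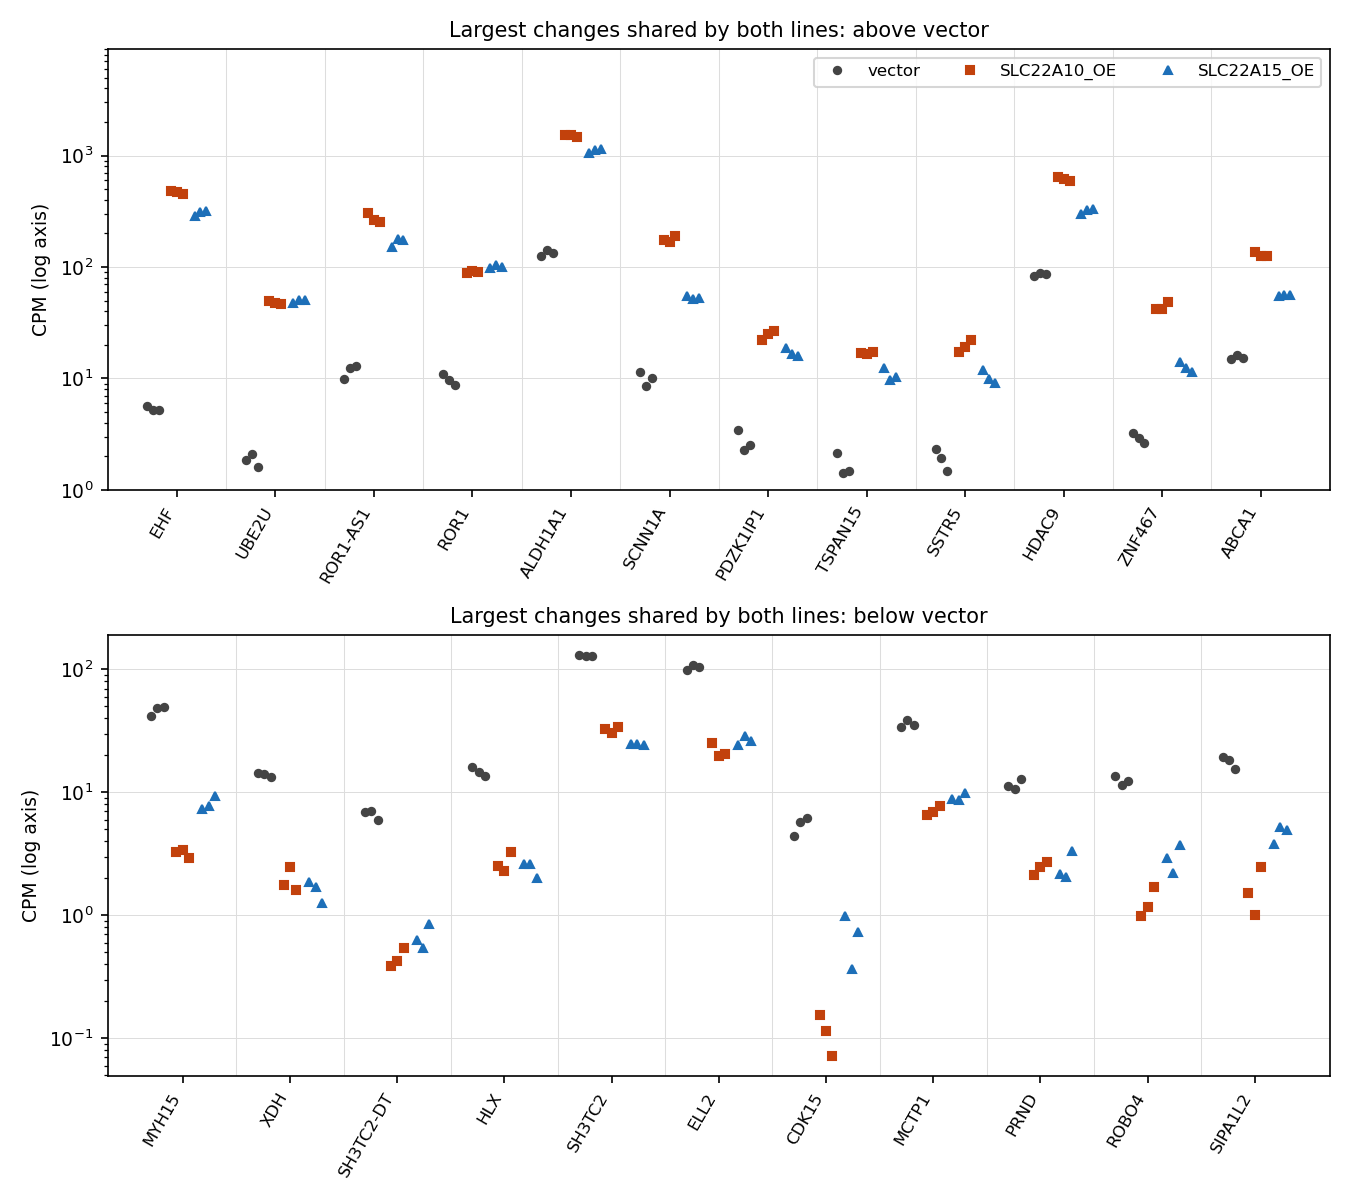
Level in CPM on a log axis of the 12 genes above vector and 11 of the 12 below with the largest change shared by both lines. Each point is 1 library of vector, SLC22A10_OE or SLC22A15_OE (3 each); in every gene shown the 6 overexpressing libraries lie on one side of the vector libraries, which the choice of genes fixes.

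EHF, an epithelial factor of the ETS family on chromosome 11, had the largest shared rise. It held 5.63, 5.26 and 5.22 CPM in vector, 481, 472 and 451 CPM in SLC22A10_OE and 288, 311 and 321 CPM in SLC22A15_OE, a joint difference of 5.90 (SE 0.05). Both lines thus stood far above vector, and SLC22A15_OE differed from SLC22A10_OE by -0.61 on the same scale. ALDH1A1, a retinaldehyde dehydrogenase, was the most abundant of these genes, with 125, 144 and 133 CPM in vector, 1541, 1546 and 1455 in SLC22A10_OE and 1045, 1121 and 1145 in SLC22A15_OE (joint difference 3.26). HDAC9, a class IIa histone deacetylase on chromosome 7, went from 83.5, 89.1 and 86.1 CPM in vector to 645, 618 and 589.7 in SLC22A10_OE and 299, 322 and 332 in SLC22A15_OE.

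Neighbours on chromosome 1 rose together in both lines. ROR1, a Wnt receptor of the tyrosine kinase-like kind (chr1:63774017-64181498 in GRCh38.p14), held 11.04, 9.76 and 8.83 CPM in vector, 89.3, 91.5 and 90.2 CPM in SLC22A10_OE and 98.2, 105 and 99.4 CPM in SLC22A15_OE. UBE2U, a ubiquitin-conjugating enzyme whose gene follows ROR1 (chr1:64203623-64267368), held 1.85, 2.08 and 1.62 CPM in vector, 49.7, 47.4 and 46.7 in SLC22A10_OE and 47.2, 50.8 and 50.5 in SLC22A15_OE. The antisense transcript ROR1-AS1 lies within the span of ROR1 (chr1:64094442-64113791) and held 9.97, 12.3 and 12.8 CPM in vector, 304, 265 and 254 in SLC22A10_OE and 152, 179 and 174 in SLC22A15_OE. How strand was used in counting is unstated, so reads of ROR1 and of its antisense transcript may not be fully told apart. The lines did not differ past the threshold in ROR1 (difference 0.16, SE 0.07, limma Benjamini-Hochberg adjusted p = 0.0681) or UBE2U (0.04, SE 0.08, adjusted p = 0.629), while ROR1-AS1 was lower in SLC22A15_OE (-0.70, SE 0.09, adjusted p = 2.66e-05). With PGM1, a phosphoglucomutase, the 3 genes formed a run of 4 neighbouring tested genes above vector.

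Of the other genes with large shared rises, SCNN1A, a subunit of the epithelial sodium channel, held 11.3, 8.55 and 10.05 CPM in vector, 175, 167 and 189 in SLC22A10_OE and 54.8, 51.5 and 52.4 in SLC22A15_OE. The cholesterol exporter ABCA1 held 14.9, 16.4 and 15.2 CPM in vector, 136, 126 and 127 in SLC22A10_OE and 55.5, 55.6 and 55.8 in SLC22A15_OE. PDZK1IP1, a small membrane protein, TSPAN15, a tetraspanin partner of ADAM10, and SSTR5, a somatostatin receptor, all stood at 1.41 to 3.41 CPM in vector and at 9.07 to 26.7 CPM in the 6 other libraries. ZNF467, a zinc finger gene on chromosome 7, held 3.26, 2.93 and 2.65 CPM in vector, 42.2, 42.2 and 48.4 in SLC22A10_OE and 14.002, 12.5 and 11.4 in SLC22A15_OE. All 12 joint calls had a limma Benjamini-Hochberg adjusted p of at most 4.05e-09, the value of SSTR5.

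Among the shared falls MYH15, a myosin heavy chain, led with 42.2, 49.03 and 49.3 CPM in vector, 3.28, 3.43 and 2.95 CPM in SLC22A10_OE and 7.33, 7.75 and 9.37 CPM in SLC22A15_OE (joint difference -2.94, SE 0.09). XDH, the xanthine dehydrogenase that ends purine breakdown in urate, held 14.3, 14.2 and 13.3 CPM in vector, 1.76, 2.46 and 1.62 in SLC22A10_OE and 1.87, 1.72 and 1.27 in SLC22A15_OE. HLX, a homeobox factor, fell from 15.97, 14.6 and 13.6 CPM in vector to 2.53, 2.29 and 3.27 in SLC22A10_OE and 2.64, 2.60 and 2.03 in SLC22A15_OE. In XDH and HLX both lines reached about the same low level, and the lines did not differ past the threshold (differences -0.17 and -0.11, limma Benjamini-Hochberg adjusted p = 0.266 and 0.448).

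As on chromosome 1, neighbours fell together on chromosome 5. SH3TC2, an endosomal adaptor of Schwann cells (chr5:148982150-149063062), held 130.3, 129.9 and 128 CPM in vector, 32.8, 30.3 and 33.7 in SLC22A10_OE and 24.9, 24.5 and 24.5 in SLC22A15_OE. Its divergent transcript SH3TC2-DT held 6.98, 7.03 and 5.94 CPM in vector, 0.388, 0.429 and 0.540 in SLC22A10_OE and 0.635, 0.546 and 0.852 in SLC22A15_OE. SH3TC2-DT thus passed the filter of 1 CPM through vector alone. The neighbours AFAP1L1 and GRPEL2 lay below vector too.

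The shared falls also held ELL2, an elongation factor (joint difference -2.07), MCTP1, a calcium-binding membrane protein (-2.02), SIPA1L2 (-2.29), ROBO4, a roundabout receptor of endothelium (-2.18), the kinase gene CDK15 (-2.23) and PRND, the prion-like doppel protein (-1.86). ELL2 was the most abundant of them, at 98.5, 109.5 and 104 CPM in vector, 25.2, 19.7 and 20.5 in SLC22A10_OE and 24.3, 28.8 and 26.3 in SLC22A15_OE. CDK15 was the lowest, with 0.0720 to 0.984 CPM in the overexpressing libraries, where a joint difference understates the change of a low gene. CDK15 also passed the filter of 1 CPM through vector alone.

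Within the shared pattern some genes went much farther in SLC22A10_OE, and these were picked by rule for that difference. OASL, an antiviral protein, held 0.185, 0.450 and 0.583 CPM in vector, 25.8, 26.2 and 27.2 in SLC22A10_OE and 2.16, 2.39 and 2.19 in SLC22A15_OE. SNCG, or gamma-synuclein, held 1.54, 1.07 and 1.30 CPM in vector, 33.1, 34.4 and 34.8 in SLC22A10_OE and 3.56, 3.20 and 3.13 in SLC22A15_OE. TNFSF10, the death ligand TRAIL, held 0.185, 0.169 and 0.106 CPM in vector, 10.03, 11.1 and 9.39 in SLC22A10_OE and 0.762, 0.728 and 0.415 in SLC22A15_OE. With vector and SLC22A15_OE under 1 CPM, TNFSF10 passed the filter of 1 CPM through SLC22A10_OE alone. NOVA2, a neuronal splicing factor, held 8.28, 6.95 and 7.66 CPM in vector, 76.8, 79.3 and 85.4 in SLC22A10_OE and 11.3, 11.02 and 12.6 in SLC22A15_OE. Among the falls CTGF, a matricellular protein, held 16.9, 15.4 and 16.01 CPM in vector, 1.63, 2.18 and 1.65 in SLC22A10_OE and 9.02, 8.71 and 7.12 in SLC22A15_OE. NOG, the BMP antagonist noggin, held 35.6, 27.7 and 30.7 CPM in vector, 3.80, 4.78 and 3.31 in SLC22A10_OE and 15.4, 13.4 and 13.3 in SLC22A15_OE. FOSL1, an AP-1 subunit, held 75.3, 65.2 and 73.6 CPM in vector, 13.3, 13.8 and 15.3 in SLC22A10_OE and 44.96, 46.6 and 43.5 in SLC22A15_OE, and KBTBD8, a ubiquitin ligase adaptor, 6.28, 7.51 and 6.44 CPM in vector, 1.03, 0.687 and 0.684 in SLC22A10_OE and 4.10, 4.13 and 4.12 in SLC22A15_OE. In each of these 8 genes SLC22A15_OE lay between vector and SLC22A10_OE.

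**Figure D2:**
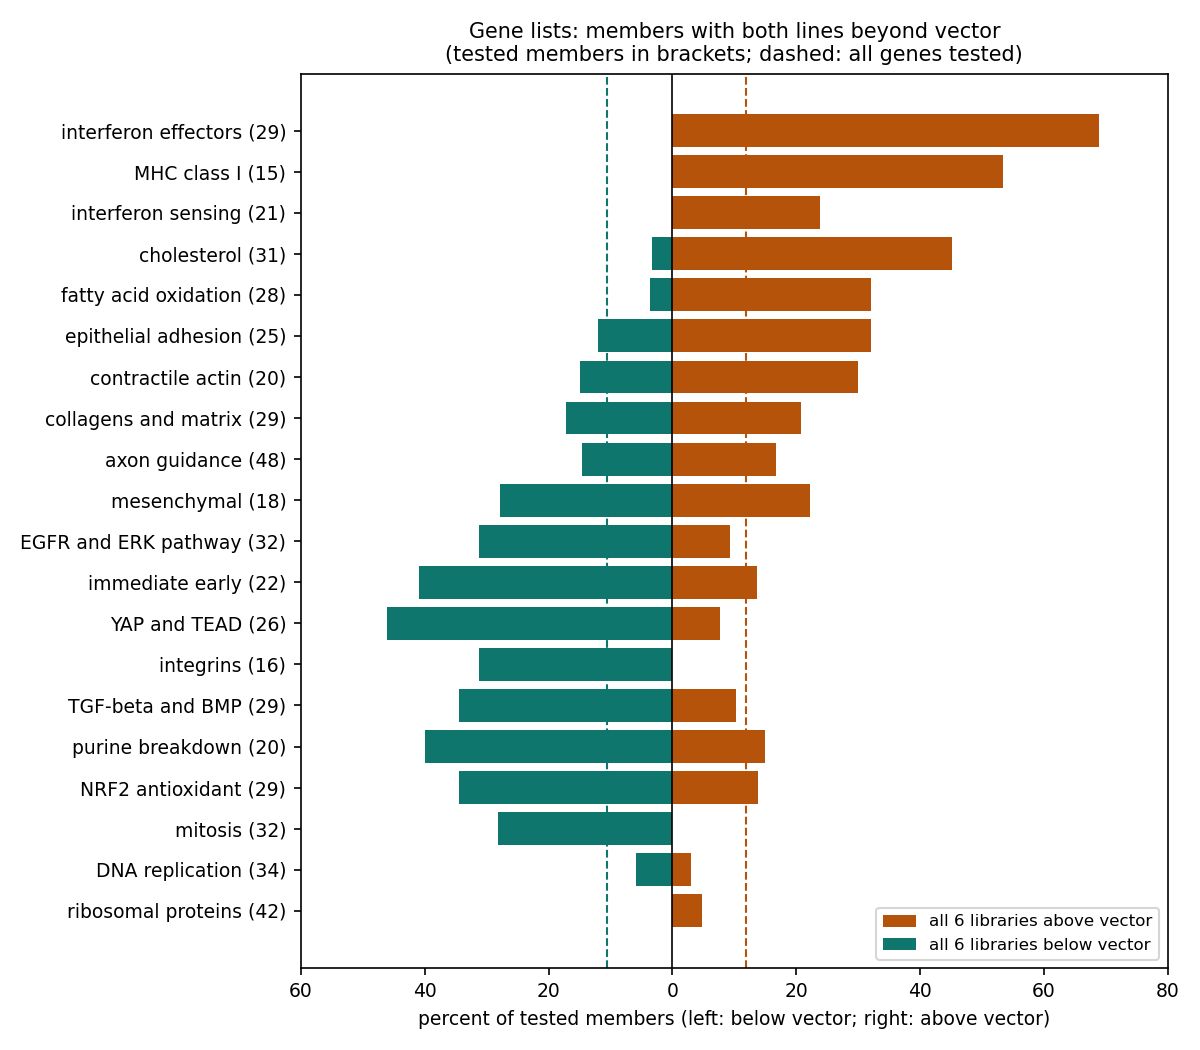
Share of the tested members of 20 gene lists with all 6 overexpressing libraries above vector (right) or below vector (left), in percent, with the number of tested members in brackets. Dashed lines mark the shares over all genes tested, 11.9% above and 10.5% below; interferon effectors reach farthest on the right and YAP and TEAD genes on the left.

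Interferon effectors, the genes that cells switch on against viruses, were the list most often above vector. Of 34 listed genes 29 were tested, 28 were called higher and 0 lower by the joint contrast, and 20 had all 6 libraries above vector, or 69.0% against 11.9% of all genes tested. The median joint difference was 1.20, against 0.00 over all genes, with a median of 1.87 in SLC22A10_OE and 0.48 in SLC22A15_OE. The 9 that were not separated were BST2, HERC5, IFI6, CMPK2, XAF1, ISG20, OAS3, MX2 and IFIT5, and of these IFIT5 was the 1 not called. With the 6 overexpressing libraries as 1 group 10 members were called higher and 0 lower. The leukocyte markers CD68 and CD14 moved the same way, with a summed level of 16.1 to 19.7 CPM in vector, 31.02 to 33.7 CPM in SLC22A10_OE and 21.03 to 21.4 CPM in SLC22A15_OE, and their part was not tested.

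Many of these genes carry, close to their start, the interferon-stimulated response element bound by IRF factors and the ISGF3 complex. The letters GAAA and again GAAA with any 2 bases between them, searched on both strands in the 250 bases before the start, were found in 15 of the 23 list members with a promoter in the RefSeq table (65.2%), against 3.07% of all 27305 promoters there and 2.31% of those of genes tested. They stood in 2.72% of the promoters of genes above vector and in 1.60% of those below, near the share of all genes. The stretches below show the matches, in capitals, in 5 members above vector (RefSeq, GRCh38.p14, 5′ to 3′ on the strand of the gene; TTTC, any 2 bases and TTTC is the same motif on the other strand, and joined capitals are overlapping matches). A match is a description of the letters and not a shown binding site.
IFIT1 (chr10:89392477-89392559, plus strand): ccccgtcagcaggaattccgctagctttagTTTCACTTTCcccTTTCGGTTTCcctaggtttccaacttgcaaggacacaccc
IFIT3 (chr10:89327811-89327914, plus strand): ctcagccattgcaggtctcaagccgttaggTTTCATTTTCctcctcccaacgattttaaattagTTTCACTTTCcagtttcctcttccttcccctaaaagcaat
ISG15 (chr1:1013354-1013429, plus strand): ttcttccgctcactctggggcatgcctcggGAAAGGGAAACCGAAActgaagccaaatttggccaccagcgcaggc
IFITM1 (chr11:313970-314039, plus strand): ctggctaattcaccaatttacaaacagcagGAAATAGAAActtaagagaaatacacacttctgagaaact
IFITM3 (chr11:320861-320942, minus strand): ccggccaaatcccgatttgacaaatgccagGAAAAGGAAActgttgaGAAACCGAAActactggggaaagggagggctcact

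The levels of the genes with these stretches were graded over the lines. IFIT3, which holds translation of foreign RNA in check, held 4.37, 4.53 and 3.71 CPM in vector, 47.98, 49.9 and 48.1 in SLC22A10_OE and 9.78, 11.1 and 11.3 in SLC22A15_OE. IFIT1, of the same family, held 4.06, 4.58 and 5.20 CPM in vector, 38.97, 40.6 and 39.6 in SLC22A10_OE and 8.16, 8.89 and 8.64 in SLC22A15_OE. ISG15, a ubiquitin-like modifier, held 3.91, 2.87 and 2.9960 CPM in vector, 18.5, 25.4 and 26.1 in SLC22A10_OE and 7.43, 7.64 and 6.40 in SLC22A15_OE. In IFIT3, IFIT1 and ISG15 the highest SLC22A15_OE library lay below the lowest SLC22A10_OE library. Their SLC22A15_OE libraries lie above vector by the choice of members above vector. BST2, HERC5, IFI6, OAS3, ISG20 and IFIT5 carry the motif too but were not separated. IFITM1, a membrane protein that blocks viral entry, held 16.1, 16.3 and 17.7 CPM in vector, 88.3, 84.8 and 86.5 in SLC22A10_OE and 35.6, 36.01 and 36.4 in SLC22A15_OE. With its neighbours IFITM2, IFITM3, NLRP6 and PGGHG on chromosome 11 it formed a run of 5 tested genes above vector. The limma Benjamini-Hochberg adjusted p of the joint difference was 1.58e-10 for IFIT3, 1.16e-09 for IFIT1, 9.61e-08 for ISG15 and 4.19e-11 for IFITM1.

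**Figure D3:**
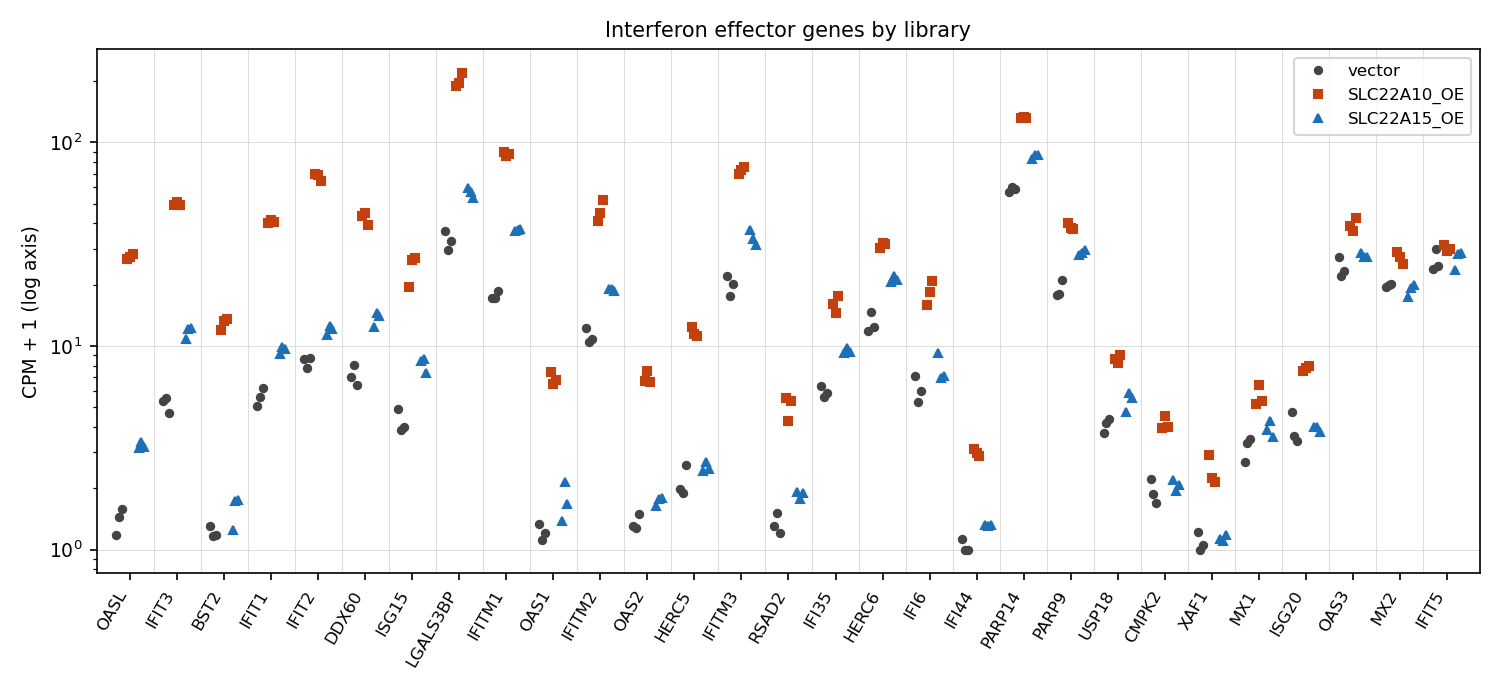
Level of the 29 tested interferon effectors as CPM + 1 on a log axis, ordered by joint difference from OASL to IFIT5, with 1 point per library (3 each of vector, SLC22A10_OE and SLC22A15_OE). SLC22A10_OE is the highest line in most genes, and SLC22A15_OE mostly lies between it and vector.

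The sensors and signal carriers above these genes moved less. Of 25 listed sensing genes 21 were tested, 10 were called higher and 3 lower, and 5 had all 6 libraries above vector. The shares were 47.6% higher, 14.3% lower and 23.8% above, against 28.0%, 25.2% and 11.9% of all genes tested. DDX58, the RNA sensor RIG-I, held 11.9, 12.996 and 13.3 CPM in vector, 69.3, 67.3 and 60.8 in SLC22A10_OE and 15.7, 16.4 and 18.8 in SLC22A15_OE. IRF1, an interferon regulatory factor, held 21.5, 21.6 and 21.9 CPM in vector, 40.000, 39.98 and 43.3 in SLC22A10_OE and 29.9, 29.8 and 29.1 in SLC22A15_OE. TMEM173, the DNA-signal adaptor STING, stayed under 1 CPM in vector and SLC22A15_OE and reached 5.32, 4.75 and 6.19 CPM in SLC22A10_OE. It thus passed the filter of 1 CPM through SLC22A10_OE alone. The DNA sensor CGAS and the receptor chain IFNAR1 were called lower without separation (-0.17 and -0.18). Without vector 3 both missed the threshold (limma Benjamini-Hochberg adjusted p = 0.0659 for CGAS and 0.0649 for IFNAR1), and without vector 2 so did IFNAR1 (0.0589). With each library centred on its median, 4 sensing genes were separated above and 2 below, and with the 6 overexpressing libraries as 1 group 2 were called higher and 0 lower.

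Antigen presentation genes of MHC class I rose with smaller differences. Of 18 listed genes 15 were tested, 13 were called higher and 1 lower, and 8 were separated above vector, with a median joint difference of 0.41. The shares were 86.7% higher and 53.3% above, against 28.0% and 11.9% of all genes tested. B2M, the light chain of MHC class I, held 94.7, 101 and 94.3 CPM in vector, 172, 178 and 169 in SLC22A10_OE and 109, 120.3 and 116 in SLC22A15_OE. ERAP2, which trims peptides for loading, held 22.7, 25.6 and 21.8 CPM in vector, 66.2, 62.3 and 58.1 in SLC22A10_OE and 31.2, 33.8 and 33.7 in SLC22A15_OE. The heavy chain gene HLA-B was called (joint difference 0.39) but not separated. Its level is uncertain, since HLA genes resemble each other closely and the handling of shared reads is unstated. TAP2, a subunit of the peptide transporter, was the member called lower (-0.38), and its call was lost without vector 2, vector 3, SLC22A10_OE 1 or SLC22A15_OE 3 (limma Benjamini-Hochberg adjusted p from 0.0539 to 0.174). With each library centred on its median 6 members were separated above, and with the 6 overexpressing libraries as 1 group 4 were called higher.

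Sterol genes were called higher more often than lower in both lines, 18 higher and 2 lower in SLC22A10_OE (median 0.22) and 12 higher and 0 lower in SLC22A15_OE (median 0.17). Of 32 listed genes 31 were tested, 18 were called higher and 1 lower, and 14 were separated above and 1 below, with a median joint difference of 0.17. The shares were 58.1% higher and 45.2% above, against 28.0% and 11.9% of all genes tested. INSIG1, which holds the sterol sensor in the endoplasmic reticulum, held 10.5, 11.2 and 10.5 CPM in vector, 30.5, 30.1 and 30.2 in SLC22A10_OE and 28.6, 26.7 and 28.5 in SLC22A15_OE (joint difference 1.36). The exporter ABCG1 held 7.54, 7.37 and 7.29 CPM in vector, 61.7, 61.3 and 64.2 in SLC22A10_OE and 29.6, 26.96 and 26.6 in SLC22A15_OE, and, like ABCA1, it is a target of the LXR receptors. SREBF2, the transcription factor of cholesterol synthesis, held 54.7, 49.7 and 50.96 CPM in vector, 92.2, 94.4 and 103 in SLC22A10_OE and 70.3, 66.4 and 67.1 in SLC22A15_OE. Of the synthesis enzymes, FDFT1 (0.46), CYP51A1 (0.47), SQLE (0.32), MSMO1 (0.28) and MVK (0.34) were separated above. FDFT1 and SQLE lie on chromosome 8 and CYP51A1 and INSIG1 on chromosome 7. With each library centred on its median 14 sterol genes were called higher and 10 separated above, and with the 6 overexpressing libraries as 1 group 9 were called higher.

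Epithelial genes rose in part. Of 40 listed genes 25 were tested, 12 were called higher and 4 lower, and 8 were separated above and 3 below. With the 6 overexpressing libraries as 1 group 3 were called higher and 2 lower. In shares, 48% were called higher, 16% lower, 32% separated above and 12% below. All genes tested had 28.0%, 25.2%, 11.9% and 10.5%, so the share below was near theirs. CLDN4, a tight junction claudin on chromosome 7, held 9.57, 8.13 and 8.59 CPM in vector, 103, 113 and 128 in SLC22A10_OE and 31.5, 26.9 and 25.5 in SLC22A15_OE, and CLDN1, of the same family, went the other way, with 117, 121 and 119 CPM in vector, 30.98, 30.02 and 31.7 in SLC22A10_OE and 52.9, 51.5 and 54.6 in SLC22A15_OE. MUC1, a membrane mucin, held 4.34, 4.05 and 4.08 CPM in vector, 24.7, 22.5 and 25.7 in SLC22A10_OE and 8.54, 8.01 and 8.57 in SLC22A15_OE. Keratins did not move as a group, since KRT18 fell (160.1, 163 and 162 CPM in vector, 95.5, 101 and 101 in SLC22A10_OE and 95.1, 95.3 and 95.8 in SLC22A15_OE) while KRT19 was called higher (joint difference 0.75) on SLC22A10_OE alone, with 81.3, 66.1 and 72.1 CPM in vector, 197, 222 and 229 in SLC22A10_OE and 76.3, 66.9 and 67.3 in SLC22A15_OE. Of the ETS factors, 25 listed and 18 tested, 3 were separated above, EHF, ELF3 and ETV6, and 2 below, ETS1 and ETS2, and with each library centred on its median 4 were separated below. By the joint contrast 5 ETS factors were called higher and 6 lower, and with the 6 overexpressing libraries as 1 group 2 higher and 1 lower. The ETS shares were 27.8% higher, 33.3% lower, 16.7% above and 11.1% below, not far from those of all genes. ELF3, an epithelial factor like EHF, held 3.51, 4.08 and 3.18 CPM in vector, 34.3, 34.9 and 38.7 in SLC22A10_OE and 7.52, 6.50 and 6.75 in SLC22A15_OE, while ETS1 held 94.2, 95.3 and 93.6 CPM in vector, 31.3, 30.3 and 31.2 in SLC22A10_OE and 49.4, 54.5 and 51.98 in SLC22A15_OE.

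Mesenchymal genes, 30 listed and 18 tested, split with 4 called higher and 7 lower, and 4 separated above and 5 below, and with the 6 overexpressing libraries as 1 group 0 were called higher and 3 lower. The shares were 22.2% higher, 38.9% lower, 22.2% above and 27.8% below. Over all genes tested they were 28.0%, 25.2%, 11.9% and 10.5%. CD44, a hyaluronan receptor, held 1363, 1475 and 1461 CPM in vector, 702, 644 and 639 in SLC22A10_OE and 748, 794 and 797 in SLC22A15_OE. S100A4 and FSTL1 rose instead (joint differences 0.88 and 0.81). VIM, the most abundant of them, was not called (-0.05), and stood at 2988, 3174 and 3110.2 CPM in vector, 3346, 3506 and 3319 in SLC22A10_OE and 2539, 2616 and 2709 in SLC22A15_OE.

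**Figure D4:**
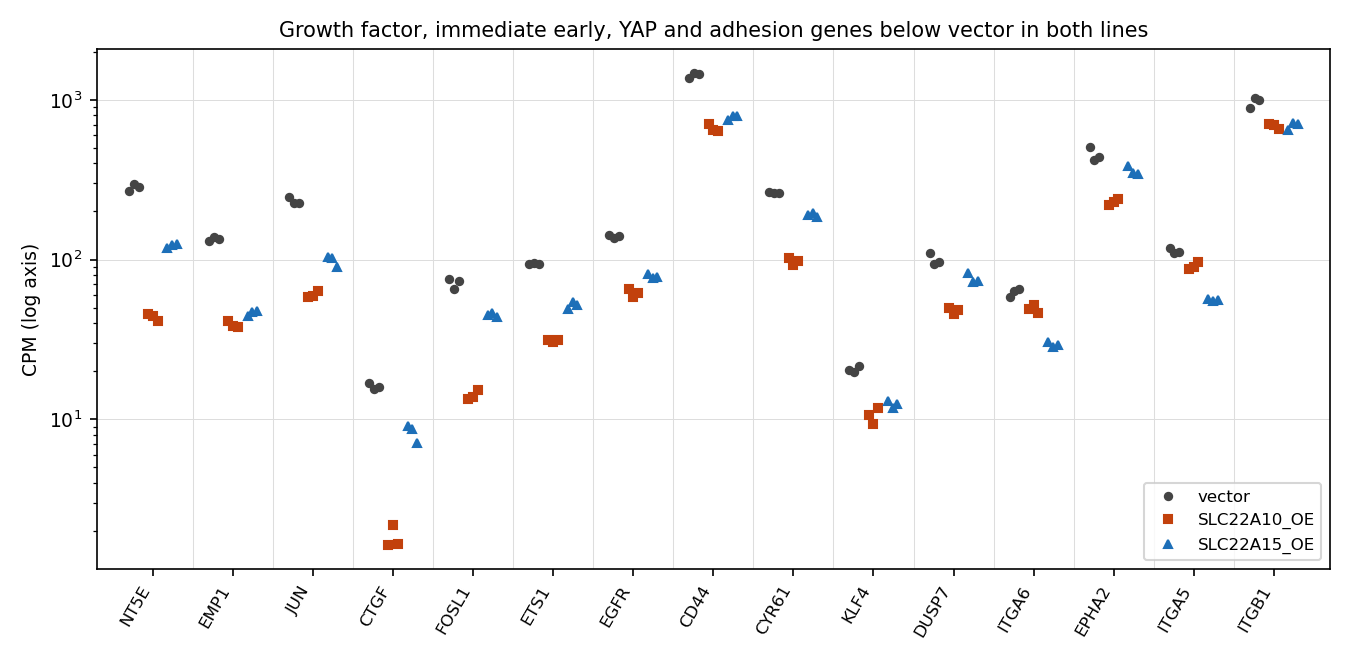
Level in CPM on a log axis of 15 genes of growth factor signalling, the immediate early response, YAP and TEAD targets and adhesion that lay below vector in both lines. Each point is 1 library (3 each of vector, SLC22A10_OE and SLC22A15_OE); SLC22A10_OE is the lower line in most of them, while ITGA5 and ITGA6 are lower in SLC22A15_OE.

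YAP and TEAD genes, which respond to cell density and stretch, were the list most often below vector. Of 30 listed genes 27 were in the table and 26 were tested, 2 were called higher and 17 lower, and 2 were separated above and 12 below (46.2% against 10.5% of all genes tested). The median joint difference was -0.32, and with the 6 overexpressing libraries as 1 group 2 members were called higher and 6 lower. NT5E, the ectonucleotidase CD73 that makes adenosine at the cell surface, held 269, 298 and 284 CPM in vector, 45.4, 44.4 and 41.05 in SLC22A10_OE and 118, 123 and 125 in SLC22A15_OE. CYR61, a matricellular protein like CTGF, held 265, 262 and 261 CPM in vector, 102, 92.9 and 98.1 in SLC22A10_OE and 191, 195 and 186 in SLC22A15_OE. AMOTL2, a feedback regulator of YAP, was called (joint difference -1.11) but not separated, since vector held 184, 161 and 166 CPM and SLC22A15_OE 161, 145 and 141 CPM. YAP1 itself was not called (0.08), while its paralog WWTR1, or TAZ (-0.29), and the partner TEAD1 (-0.56) were lower and TEAD2 (0.65) and the target DLC1 (0.91) were higher.

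CTGF is shown because it carries several copies of the TEAD motif close to its start. The letters GGAATG, on both strands of the 250 bases before the start, stood in 4 of the 17 list members with a promoter in the table, NUAK2, PTPN14, CTGF and YAP1, against 11.9% of all promoters and 9.25% of those of genes tested. They stood in 10.4% of the promoters of genes above vector and in 8.61% of those below. The stretch is from RefSeq (GRCh38.p14), 5′ to 3′ on the strand of the gene, with the matches in capitals.
CTGF (chr6:131951432-131951571, minus strand): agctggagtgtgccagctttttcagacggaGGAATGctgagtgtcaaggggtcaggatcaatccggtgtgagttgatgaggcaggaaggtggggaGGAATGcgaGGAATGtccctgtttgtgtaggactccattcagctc

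The immediate early genes, which growth signals switch on within minutes, did not move as a block. Of 26 listed genes 22 were tested, 7 were called higher and 12 lower, and 3 were separated above and 9 below, with a median joint difference of -0.26. The shares were 31.8% higher, 54.5% lower, 13.6% above and 40.9% below. Over all genes tested they were 28.0%, 25.2%, 11.9% and 10.5%. In the fit of the 6 overexpressing libraries as 1 group 1 was called higher and 3 lower. JUN, an AP-1 subunit, held 246, 226 and 227 CPM in vector, 58.4, 58.8 and 63.5 in SLC22A10_OE and 103, 103 and 90.3 in SLC22A15_OE (joint difference -1.58, SE 0.05). KLF4, a zinc finger factor, held 20.3, 19.7 and 21.6 CPM in vector, 10.6, 9.30 and 11.7 in SLC22A10_OE and 13.1, 11.8 and 12.5 in SLC22A15_OE. Another AP-1 subunit, JUND, was separated above (1.06), as were EGR1 (0.72) and the antiproliferative gene BTG2 (0.75). EGR1 held 33.9, 32.04 and 32.3 CPM in vector, 78.9, 80.9 and 84.8 in SLC22A10_OE and 37.2, 36.5 and 35.5 in SLC22A15_OE, so its difference of 0.15 in SLC22A15_OE was small. The CArG box, which the serum response factor binds, was found before 1 of the 16 list members with a promoter in the table, EGR1, against 1.14% of all promoters.

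Of the genes of EGFR and ERK signalling and its feedback, 33 listed and 32 tested, 8 were called higher and 14 lower. Separated were 3 above and 10 below, and 1 was called higher and 7 lower with the 6 overexpressing libraries as 1 group. In shares, 25% were called higher, 43.75% lower, 9.38% separated above and 31.25% below. All genes tested had 28.0%, 25.2%, 11.9% and 10.5%, so only the lower side stood over them. EGFR, on chromosome 7, held 143, 137 and 141 CPM in vector, 64.9, 58.3 and 61.5 in SLC22A10_OE and 81.1, 76.6 and 77.5 in SLC22A15_OE (joint difference -1.01). EMP1, a membrane protein of the epithelial response to growth signals, held 130.3, 138 and 135 CPM in vector, 41.5, 38.6 and 37.7 in SLC22A10_OE and 44.6, 46.95 and 47.6 in SLC22A15_OE. The ligand HBEGF (-1.004), the phosphatases DUSP6 (-0.64) and DUSP7 (-0.72), the receptor EPHA2 (-0.67), the feedback inhibitor SPRY4 (-0.56) and CCND1 (-0.46) were also separated below. The EGFR ligand AREG and the receptor ERBB3 rose instead. AREG held 24.8, 29.5 and 31.6 CPM in vector, 94.9, 96.5 and 86.5 in SLC22A10_OE and 44.5, 48.9 and 50.4 in SLC22A15_OE, and ERBB3 held 1.82, 2.28 and 2.39 CPM in vector, 16.8, 16.9 and 15.6 in SLC22A10_OE and 3.49, 3.04 and 2.97 in SLC22A15_OE.

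Integrin subunits, receptors for the matrix, had 31.25% of their tested members separated below vector, against 10.5% of all genes tested. Above vector lay 11.9% of all genes tested, so 0 above among 16 members says little by itself. Of 24 listed genes 16 were tested, 3 were called higher and 8 lower, and 0 were separated above and 5 below, ITGA10, ITGA6, ITGA5, ITGB1 and ITGB8, and with the 6 overexpressing libraries as 1 group 0 were called higher and 2 lower. ITGB1, the most abundant, held 890.3, 1029.9 and 997 CPM in vector, 704, 691 and 653 in SLC22A10_OE and 643, 721 and 704 in SLC22A15_OE, and the lines differed by 0.01 (SE 0.06). ITGA5, the fibronectin receptor chain, held 118, 109 and 112 CPM in vector, 87.6, 89.7 and 95.98 in SLC22A10_OE and 56.3, 54.8 and 55.6 in SLC22A15_OE, so here SLC22A15_OE was the farther line. ITGB4, called higher (0.94), rose in SLC22A10_OE alone, with 3.60, 2.95 and 3.69 CPM in vector, 14.4, 14.2 and 16.8 in SLC22A10_OE and 3.65, 3.41 and 3.18 in SLC22A15_OE.

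Ligands and antagonists of the TGF-beta and BMP pathways, 37 listed and 29 tested, had 8 called higher and 12 lower, and 3 separated above and 10 below, and with the 6 overexpressing libraries as 1 group 3 called higher and 7 lower. The shares were 27.6% higher, 41.4% lower, 10.3% above and 34.5% below. Over all genes tested they were 28.0%, 25.2%, 11.9% and 10.5%. LTBP2, a matrix binder related to the TGF-beta latency proteins, held 199, 177 and 183 CPM in vector, 86.8, 83.1 and 92.1 in SLC22A10_OE and 86.8, 83.9 and 81.3 in SLC22A15_OE, and the lines did not differ past the threshold (-0.05, SE 0.06, limma Benjamini-Hochberg adjusted p = 0.424). ID3, an inhibitor of helix-loop-helix factors and a BMP target, was separated above, with 165, 125 and 139 CPM in vector, 171, 177 and 199 in SLC22A10_OE and 260.4, 224 and 226 in SLC22A15_OE.

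Purine breakdown genes were below vector at several steps. Of 26 listed genes 20 were tested, 5 were called higher and 10 lower, and 3 were separated above and 8 below. With the 6 overexpressing libraries as 1 group 2 were called higher and 6 lower. In shares, 25% were called higher, 50% lower, 15% separated above and 40% below. All genes tested had 28.0%, 25.2%, 11.9% and 10.5%, so the shares higher and above were near theirs. Along the path from extracellular nucleotide to urate, NT5E and XDH are given above, and PNP, which splits nucleosides, held 136, 129 and 128 CPM in vector, 61.7, 63.8 and 65.1 in SLC22A10_OE and 94.3, 94.5 and 96.4 in SLC22A15_OE. The nucleoside transporter SLC29A2 (0.51) and ENTPD4 on chromosome 8 (0.52) were separated above. NRF2 and antioxidant genes, 30 listed and 29 tested, had 10 called higher and 12 lower, and 4 separated above and 10 below, and with the 6 overexpressing libraries as 1 group 2 called higher and 4 lower. Their shares were 34.5% higher, 41.4% lower, 13.8% above and 34.5% below. AKR1C1, an aldo-keto reductase, held 287, 290.0 and 284 CPM in vector, 152, 157 and 166 in SLC22A10_OE and 217, 211 and 218 in SLC22A15_OE, and GSR, glutathione reductase on chromosome 8, rose from 77.6, 77.6 and 80.1 CPM in vector to 131, 133 and 137 in SLC22A10_OE and 124, 118 and 119.7 in SLC22A15_OE. AKR1C1 and AKR1C2 are near-identical copies, so their levels are uncertain.

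Mitosis genes were called lower more often than they were separated below, which also held for all genes tested (25.2% and 10.5%). All 32 listed genes were tested, and 0 were called higher and 23 lower (71.9% against 25.2% of all genes). Separated were 0 above and 9 below (28.1% against 10.5% of all genes). The median joint difference of mitosis genes was -0.23, with a median of -0.37 in SLC22A10_OE and -0.07 in SLC22A15_OE. With the 6 overexpressing libraries as 1 group 1 was called lower. CDC20, which switches on the anaphase-promoting complex, held 466, 427 and 427 CPM in vector, 208, 210.1 and 219.5 in SLC22A10_OE and 379, 368 and 357 in SLC22A15_OE. ANLN, a scaffold of cell division on chromosome 7, held 448, 527 and 497 CPM in vector, 255, 245 and 224 in SLC22A10_OE and 379, 410.3 and 407 in SLC22A15_OE. DNA replication genes, all 34 tested, had 2 called higher (5.88%) and 16 lower (47.1%). Separated were 1 above (2.94%) and 2 below (5.88%), under the shares of all genes (11.9% and 10.5%). With the 6 overexpressing libraries as 1 group 1 was called higher and 0 lower. Their median was -0.33 in SLC22A10_OE and 0.09 in SLC22A15_OE, and CDC6, which loads the replicative helicase, held 137, 135 and 136 CPM in vector, 67.4, 71.3 and 61.3 in SLC22A10_OE and 121, 131 and 136 in SLC22A15_OE. Replication-dependent and linker histones, 32 listed and 29 tested, had 10 called higher and 0 lower and 3 separated above, which became 7, 2 and 1 with each library centred on its median, and with the 6 overexpressing libraries as 1 group 1 was called higher and 0 lower. Of the histones 34.5% were called higher and 10.3% separated above, against 28.0% and 11.9% of all genes. In SLC22A10_OE 5 histones were called higher and 8 lower (median -0.01), and in SLC22A15_OE 22 higher and 0 lower (median 0.25). Histones have near-identical copies, so their levels are uncertain. Cytosolic ribosomal proteins, all 42 tested, had 13 called higher and 3 lower and 2 separated above, and with each library centred on its median 4 higher and 4 lower, and with the 6 overexpressing libraries as 1 group 1 higher and 0 lower. Their shares were 31.0% higher, near that of all genes, 7.14% lower and 4.76% above. The lines differed here. In SLC22A10_OE 32 ribosomal proteins were called higher and 2 lower (median 0.25), and in SLC22A15_OE 1 higher and 5 lower (median -0.10).

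Fatty acid oxidation, lysosome and aldehyde dehydrogenase genes were called higher more often than lower. Over all genes tested 28.0% were called higher, 25.2% lower, 11.9% separated above and 10.5% below. For fatty acid oxidation these shares were 60.7%, 3.57%, 32.1% and 3.57%, and for lysosome genes 50%, 12.5%, 18.75% and 6.25%. Aldehyde dehydrogenase and retinoid genes had 58.3%, 12.5%, 20.8% and 4.17%. Of 31 fatty acid oxidation genes 28 were tested, 17 were called higher and 1 lower, and 9 were separated above and 1 below, while in the fit as 1 group 1 was called higher and 0 lower. CRAT, carnitine acetyltransferase, held 61.8, 49.6 and 54.2 CPM in vector, 111, 114 and 123 in SLC22A10_OE and 66.9, 66.8 and 62.9 in SLC22A15_OE, and ACSL1, an acyl-CoA synthetase, was the member separated below (-0.32). Of 32 lysosome genes, all tested, 16 were called higher and 4 lower, and 6 were separated above and 2 below, which became 4 and 5 with centring, and in the fit as 1 group 2 were called higher and 0 lower. CTSB, the protease cathepsin B on chromosome 8, held 181, 167 and 163 CPM in vector, 362, 378 and 395 in SLC22A10_OE and 229, 221 and 214 in SLC22A15_OE. Of 30 aldehyde dehydrogenase and retinoid genes 24 were tested, 14 were called higher and 3 lower, and 5 were separated above and 1 below, and in the fit as 1 group 2 were called higher and 0 lower. ALDH1A3, a close relative of ALDH1A1, was the member below, with 299, 299.6 and 299 CPM in vector, 175, 171 and 166 in SLC22A10_OE and 245, 249 and 258 in SLC22A15_OE. Of the 23 listed SLC22 transporters 9 were tested, and 4 were called higher (44.4%) and 3 lower (33.3%). In either direction 0 were separated, and 0 were called in the fit as 1 group. Since 22.4% of all genes tested were separated, 0 among 9 members says little by itself.

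Matrix and guidance genes moved in both directions. Over all genes tested 28.0% were called higher, 25.2% lower, 11.9% separated above and 10.5% below. Called higher and lower were 51.7% and 20.7% of collagen and matrix genes and 47.9% and 25% of axon guidance genes. Among Wnt genes 41.9% and 19.4% were called higher and lower, and among Notch genes 38.9% and 16.7%. The share called higher thus stood over that of all genes in each of these lists. Shares above and below were 20.7% and 17.2% for collagen and matrix genes and 16.7% and 14.6% for axon guidance. For Wnt genes they were 16.1% and 12.9% and for Notch genes 11.1% and 16.7%, not far from all genes. Of 45 collagen and matrix genes 29 were tested, 15 were called higher and 6 lower, and 6 were separated above and 5 below, and in the fit as 1 group 3 were called higher and 3 lower. LAMB1, a laminin chain on chromosome 7, held 12.4, 13.1 and 11.9 CPM in vector, 47.1, 47.6 and 42.9 in SLC22A10_OE and 24.1, 24.5 and 24.1 in SLC22A15_OE, and COL6A3 fell, with 398, 377 and 375 CPM in vector, 208, 211 and 219.8 in SLC22A10_OE and 243, 239 and 238 in SLC22A15_OE. Of 61 axon guidance genes 48 were tested, 23 were called higher and 12 lower, and 8 were separated above and 7 below, which became 6 and 8 with centring, and in the fit as 1 group 2 were called higher and 4 lower. SEMA3A, a secreted semaphorin on chromosome 7, held 134, 150.4 and 138 CPM in vector, 419, 407 and 391 in SLC22A10_OE and 261, 291 and 289 in SLC22A15_OE, and RGMB, a BMP co-receptor, held 153, 161 and 152 CPM in vector, 68.97, 70.5 and 67.7 in SLC22A10_OE and 74.9, 73.2 and 74.6 in SLC22A15_OE. Of 42 Wnt genes 31 were tested, 13 were called higher and 6 lower, and 5 were separated above and 4 below, which became 3 and 7 with centring, and in the fit as 1 group 2 were called higher and 2 lower. FZD8, a Wnt receptor, fell from 22.7, 17.5 and 19.8 CPM in vector to 7.05, 8.10 and 8.74 in SLC22A10_OE and 7.27, 5.90 and 5.18 in SLC22A15_OE. Of 24 Notch genes 18 were tested, 7 were called higher and 3 lower, and 2 were separated above and 3 below, and in the fit as 1 group 1 was called higher and 2 lower. The ligand JAG1 rose (1.48) and the target HES1 fell (-1.14).

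**Figure D5:**
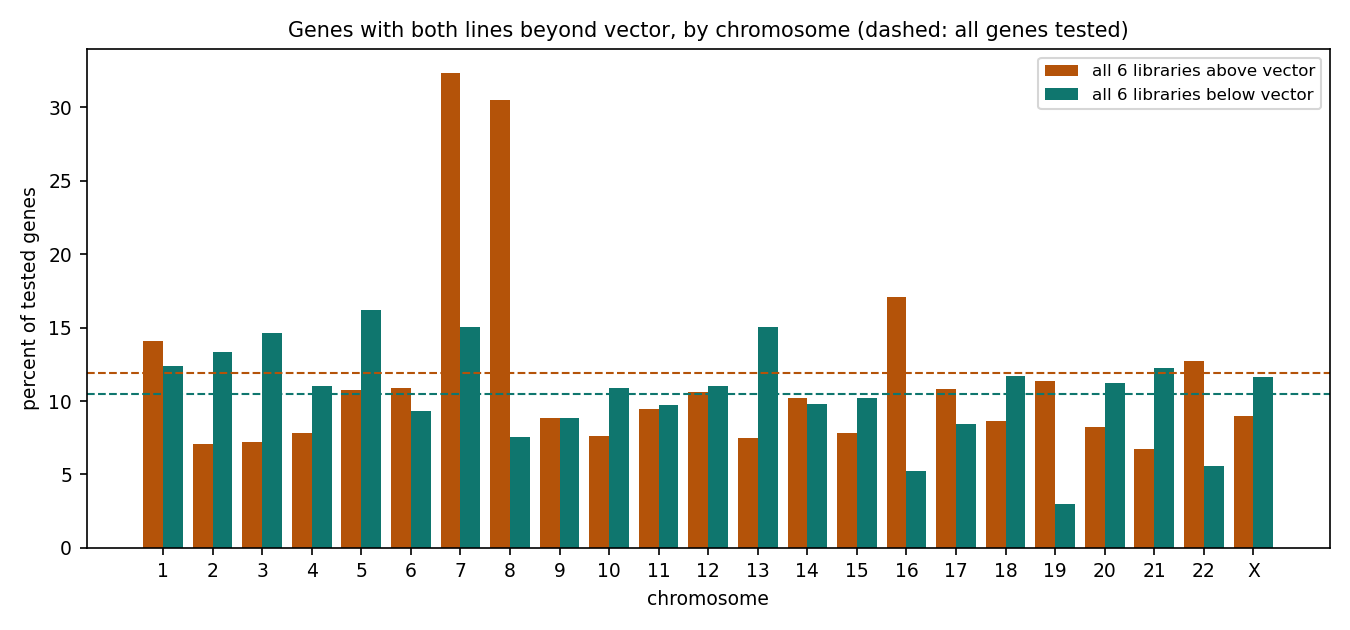
Share of the tested genes of each chromosome with all 6 overexpressing libraries above vector or below vector, in percent, with dashed lines at the shares over all chromosomes (11.9% above, 10.5% below). Chromosomes 7 and 8 reach 32.3% and 30.5% above vector.

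The position of a gene does not enter the rule, and the separated genes were unevenly spread. On chromosome 7, 230 of 711 tested genes lay above vector (32.3%) and 107 below (15.05%), and on chromosome 8, 137 of 449 lay above (30.5%) and 34 below (7.57%). Chromosome 16 had 117 of 684 above (17.1%) and 36 below, while on chromosome 19 31 of 1038 genes (2.99%) lay below. With each library centred on its median, chromosomes 7 and 8 had 27.7% and 24.5% above, and chromosome 16 had 12.7%. Without the genes of chromosomes 7 and 8 the main scaling gave an even balance, with 1371 above and 1386 below of 13394 genes. That balance depends on the scaling, since centring gave 1300 above and 2035 below over all genes tested. It was not recounted without chromosomes 7 and 8 under centring.

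Regions of chromosome 7 went opposite ways. In windows of 10 Mb with at least 20 tested genes, from 120 to 160 Mb on chromosome 7, 59.6% to 65.8% of genes lay above vector and at most 2.78% below, with a median joint difference of 0.38 to 0.55. From 30 to 40 Mb 48.7% lay below and 0 above (median -0.25). The window medians were alike in size in both lines, 0.32 to 0.57 in SLC22A10_OE and 0.45 to 0.54 in SLC22A15_OE on the distal long arm. Windows with 47.2% to 55.2% above also lay on chromosome 8, from 10 to 40 Mb and from 140 to 150 Mb, and on chromosome 1 34 of 68 genes lay above from 220 to 230 Mb and 22 of 44 from 230 to 240 Mb. Neighbouring tested genes formed runs of up to 12 in 1 direction, from HIP1 to DTX2 (chr7:75533298-76505991) and from ZC3HAV1L to ADCK2 (chr7:139021498-140695110). HSPB1, a small heat shock protein in the run from HIP1 to DTX2, held 134, 91.8 and 106 CPM in vector, 346, 361 and 435 in SLC22A10_OE and 254, 199 and 189 in SLC22A15_OE. Gene copy number was not measured, and its part in these regions was not tested.

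By class of gene, 2992 of the 12703 tested protein-coding genes were separated (23.6%), against 158 of 958 long noncoding RNAs (16.5%) and 13 of 163 small nucleolar RNAs (7.98%). Of the small nucleolar RNAs 12 were below vector and 1 above.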

How the data were processed

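RNA of 9 PANC-1 libraries was sequenced by the authors, and the deposited table gives CPM per gene and library for 16750 genes. edgeR and the builds hg38 and mm9 are named in the submitters' processing notes, without a role for each build. The sources used here give neither aligner nor counter, and no annotation release or strand setting. The authors also deposited log2 fold changes per line against vector, per the file headers, and these tables were used for gene symbols. The columns name a group and a number from 1 to 3, and libraries are named here in that way. All 9 columns entered every fit.

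The main test was limma (3.58.1, R 4.3.3) on log2(CPM + 1) with a mean trend and 1 mean per group. Genes with at least 1 CPM in at least 3 libraries were tested, with two-sided p-values, Benjamini-Hochberg adjustment over 14554 genes and a threshold of 0.05. The deposited CPM gave whole reads for 100% of values within 0.1 read, and edgeR (4.0.16) on these was an alternative, with 7690 joint calls. Other alternatives were another pseudocount, other filters, centring, a replicate block, the 6 overexpressing libraries as 1 group, leaving libraries out and, added after seeing the data, a term for the libraries low in mitochondrial ribosomal RNA. The limma script was tested on simulated data. Coordinates, promoters and gene classes are from RefSeq (GRCh38.p14), to which 16493 genes were matched by gene number.

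The 3265 genes, the lists and the named genes were chosen with earlier results of these data known. Named by rule were the transduced genes, the 12 genes per direction with the largest change shared by both lines, up to 4 members of a list in the direction of its median and up to 2 in the other, the 4 genes per direction with the largest difference between the lines, and 1 gene just inside and 1 just outside per direction. Other members were named after their values were seen. Some genes that the rule picks are not reported here.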

Additional observations from a re-analysis of the deposited data

Results flagged for a closer look

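Among the genes named for the size of their shared change or of their line difference, 13 differed between the transporter lines by at least 1 on the log2(CPM + 1) scale with a Benjamini-Hochberg adjusted p under 0.05 (limma, SLC22A15_OE minus SLC22A10_OE, 3 libraries each). The difference was -3.08 for OASL, -3.03 for SNCG, -2.78 for TNFSF10 and -2.69 for NOVA2, all lower in SLC22A15_OE. TNFSF10 passed the filter of 1 CPM through SLC22A10_OE alone, so its line difference adds little. SCNN1A (-1.72), ZNF467 (-1.74) and ABCA1 (-1.20) were lower in SLC22A15_OE too. CTGF (1.72), NOG (1.61), FOSL1 (1.61), KBTBD8 (1.51), MYH15 (1.11) and SIPA1L2 (1.11), which lay below vector in both lines, were higher in SLC22A15_OE. In all 13 genes SLC22A10_OE was the line farther from vector, and 8 of them were named for their difference between the lines.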

How the results depend on the processing

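No named gene with a joint call changed the sign of its joint difference under these alternatives, but centring each library on its median turned the joint split from 4070 higher and 3666 lower to 3115 and 4983, and the separated genes to 1300 above and 2035 below. The count of 7736 joint calls became 1314 with the 6 overexpressing libraries as 1 group, where the distance between the lines counts as spread, and 4244 genes there had an unadjusted p under 0.05. Leaving out 1 library gave 6263 to 7780 joint calls and 3337 to 5231 separated genes, the most without vector replicate 1. The count of separated genes cannot fall when libraries are left out, because the rule then asks less. Leaving out 1 library gave 8251 to 9611 calls between the lines, 8909 to 9959 for SLC22A10_OE and 2074 to 3526 for SLC22A15_OE. Without the 3 libraries low in mitochondrial ribosomal RNA, 6093 genes were separated and 4494 were called in SLC22A15_OE, and with a term for those libraries, added after seeing the data, 5608 were called in SLC22A15_OE (causes not tested). Same-numbered libraries correlated from -0.41 to 0.57 in their deviations from the group means, so the numbers do not pair the libraries, while the 3 libraries low in mitochondrial ribosomal RNA correlated from 0.48 to 0.57. With the number as a replicate block, 7581 joint calls, 9111 between the lines, 9688 in SLC22A10_OE and 2781 in SLC22A15_OE were made, and all 222 named genes kept their side of the threshold. At 5 CPM, 208 named genes kept their side of the threshold and 1 lost its call. A gene at 1 CPM rested on 27.8 to 43.4 reads.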

Other observations

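Several runs of neighbouring genes not described above moved together, and they were picked after their values were seen. On chromosome 12 the genes of the first complement component were separated above vector. C1R held 17.6, 17.4 and 19.5 CPM in vector, 100.5, 97.4 and 103 in SLC22A10_OE and 33.8, 30.3 and 30.3 in SLC22A15_OE, and C1S held 19.5, 18.96 and 19.8 CPM in vector, 68.8, 74.6 and 68.03 in SLC22A10_OE and 29.4, 29.5 and 30.3 in SLC22A15_OE. On chromosome 5 the thrombin receptor F2R held 287, 298 and 287 CPM in vector, 562, 543 and 542 in SLC22A10_OE and 431, 454 and 453 in SLC22A15_OE, and its neighbour F2RL1, a receptor for trypsin-like proteases, held 26.2, 27.7 and 28.2 CPM in vector, 77.3, 75.1 and 73.7 in SLC22A10_OE and 53.2, 55.01 and 50.2 in SLC22A15_OE. On chromosome 7 the neighbours SEMA3C, CACNA2D1 and PCLO lay below vector, as did HGF, the ligand of the MET receptor. HGF lies near the floor and reached 1 CPM in vector alone. It thus passed the filter only through vector, and its place below vector adds little. HGF held 1.32, 1.13 and 1.27 CPM in vector, 0, 0.114 and 0.144 in SLC22A10_OE and 0.127, 0.0780 and 0.207 in SLC22A15_OE, and SEMA3C held 242, 288 and 276 CPM in vector, 115, 112 and 98.7 in SLC22A10_OE and 179, 196 and 198 in SLC22A15_OE. The hepatic uptake transporters SLCO1B3 and SLCO1B1 on chromosome 12 were also below vector, with 89.5, 101 and 102 CPM in vector, 61.9, 63.7 and 60.98 in SLC22A10_OE and 71.1, 85.4 and 83.4 in SLC22A15_OE for SLCO1B3.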
